A study of Mus musculus with 8 samples.

Results

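Hepatic glucose metabolism was followed through 9 genes, Pck1, G6pc, Fbp1, Tat, Ppargc1a, Pklr, Gys2, Pygl and Slc2a2. They were chosen by name for their known roles in gluconeogenesis, glycolysis and glycogen turnover, by a rule that uses no measured value, and were found in the count table by their Ensembl gene IDs. They make up 9 of the 49671 gene IDs in the table, and all 9 passed the filter on low counts (at least 1 CPM, a count scaled by the size of its library, in 2 or more libraries), which kept 13117 genes.

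The liver keeps blood glucose steady by making glucose and breaking down glycogen during a fast, and by taking up glucose, storing it as glycogen and burning it by glycolysis after a meal. Glucagon, acting through cyclic AMP, and glucocorticoids raise the transcripts of the glucose-making enzymes, while insulin lowers them. Insulin and glucose together raise liver pyruvate kinase. The transcripts of several of these enzymes therefore follow feeding and the time of day in normal mice.

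The data are RNA-seq read counts per gene from whole liver of post-weaning mice of strain C57BL/6, in 8 libraries that form 4 groups of 2. WT males and WT females carry the normal Lbr gene. NT-KO males and NT-KO females are labelled KO and carry on both alleles an edited deletion that spans the usual translation start of Lbr and that was chosen to leave the sterol reductase domains intact. Lbr encodes the lamin B receptor, a protein of the inner nuclear membrane that tethers chromatin and has sterol reductase activity. The line descends from 1 male founder backcrossed to C57BL/6N, so the NT-KO mice share 1 edited allele, present in all cells. The labels give the liver samples as separate samples but do not say whether littermates were used, and the feeding state and hour of collection are not given in the sources used here. With 2 libraries in a group, p-values weigh a difference against the spread between these samples only. That spread was estimated over all 4 groups and with the help of the other genes.

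The column totals ran from 45020377 to 64396291 counts, and 1 count was worth 0.0147 to 0.0236 CPM. Lbr itself was checked first. The WT libraries read 7.99 and 6.54 CPM (males) and 7.43 and 6.96 CPM (females), and the NT-KO libraries read 12.8 and 13.6 CPM (males) and 13.1 and 14.0 CPM (females), so every NT-KO library was above every WT library. On the log2 scale NT-KO livers stood 0.86 ± 0.17 (SE) above WT for males and 0.91 ± 0.17 for females, with FDRs (false discovery rates) of 0.167 and 1 in edgeR's quasi-likelihood test. Reads outside the deleted stretch are still counted, so this level does not check the genotype labels. Of the 9 hepatocyte markers in the table all were tested, and their summed level was 89717 to 126732 CPM, with albumin alone at 51858 to 83426 CPM. None of 6 markers of exocrine pancreas passed the filter, and their summed level was 0.219 to 0.712 CPM.

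The upstream sequences of the genes whose values are set out in most detail are shown here, since cyclic AMP and nuclear receptors are known to act on liver genes through short upstream motifs. The sequences are from RefSeq on GRCm38 and were cut at 250 bases before the start site, without bases that lie in an annotated exon. For Pck1 this is chr2:173152823-173153047 on the plus strand, and for Pygl chr12:70227684-70227840 on the minus strand. For Pklr it is chr3:89135892-89136141 on the plus strand, before the first of its start sites. The sequence before its second start site, which lies further downstream, is not shown. Which of these start sites the liver transcripts used was not tested, so the sequence shown for Pklr may not be the one in use in liver. For G6pc, whose RefSeq start lies within the first GENCODE exon, only windows of 30 bases around each match are shown, at chr11:101367650-101367679 and chr11:101367675-101367704 on the plus strand. Capitals mark matches, on either strand, to the core of the cyclic AMP response element, spelled TGACG, to a nuclear receptor half-site, spelled AGGTCA, or to a TATA box, spelled TATAAA.
Pck1 upstream sequence: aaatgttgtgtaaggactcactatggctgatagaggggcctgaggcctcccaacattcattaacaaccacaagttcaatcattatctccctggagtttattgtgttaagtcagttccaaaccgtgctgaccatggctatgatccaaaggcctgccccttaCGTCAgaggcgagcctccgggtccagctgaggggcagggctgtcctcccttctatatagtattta
G6pc half-site window: tcagggctggatTGACCTacagactgaatc
G6pc TATA box window: gaatccagggcaTATAAAacaggggcaagg
Pklr upstream sequence: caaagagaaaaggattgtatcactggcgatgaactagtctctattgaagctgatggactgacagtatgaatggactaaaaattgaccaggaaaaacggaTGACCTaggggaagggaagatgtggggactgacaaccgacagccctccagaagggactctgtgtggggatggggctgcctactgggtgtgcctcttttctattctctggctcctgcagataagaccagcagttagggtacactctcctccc
Pygl upstream sequence: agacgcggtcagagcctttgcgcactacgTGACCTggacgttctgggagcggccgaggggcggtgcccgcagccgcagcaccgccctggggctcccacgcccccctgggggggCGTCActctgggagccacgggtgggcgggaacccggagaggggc

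TGACG was present upstream of Pck1, Ppargc1a and Pygl, 3 of the 8 genes with an entry in the promoter table, and in 17.8% of all 32841 promoters. AGGTCA was present upstream of G6pc, Pklr (before its first start site), Pygl and Slc2a2, and in 14.0% of all promoters. TATAAA was present upstream of G6pc and, before its second start site, Pklr, and in 12.4% of all promoters. A FOXO motif, spelled GTAAACA, occurred in 0 of the 8 genes and in 3.17% of all promoters. A glucocorticoid receptor half-site, spelled TGTTCT, occurred in 0 of the 8 genes and in 16.1% of all promoters. An E-box, spelled CACGTG, occurred in 0 of the 8 genes and in 6.02% of all promoters. A match describes the letters in this window and was not tested as a binding site.

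Levels between genes were compared as CPM per kb of exon. Fbp1, Pck1 and Tat were highest, G6pc, Gys2, Pklr, Pygl and Slc2a2 were intermediate, and Ppargc1a, a coactivator rather than an enzyme, was far lower. Fbp1 had 576 ± 101 CPM per kb (SD, n = 8 libraries), Pck1 514 ± 161 and Tat 448 ± 111. In each of the 8 libraries Tat lay above G6pc, which had 100.2 ± 40.6 CPM per kb, and the ranges of this pair did not overlap. Gys2 followed at 99.7 ± 19.0, Pklr at 92.6 ± 41.9, Pygl at 70.7 ± 19.7 and Slc2a2 at 65.8 ± 17.4 CPM per kb. Slc2a2 in turn lay 64.3-fold above Ppargc1a, which had 1.02 ± 0.273 CPM per kb and whose range also did not overlap. All other neighbours in this order overlapped: Fbp1 exceeded Pck1 in 6 of 8 libraries, Pck1 exceeded Tat in 5, and G6pc exceeded Gys2 in 2. Among 13096 genes with a known length, Fbp1 ranked 78 and Ppargc1a 9874.

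**Figure D1:**
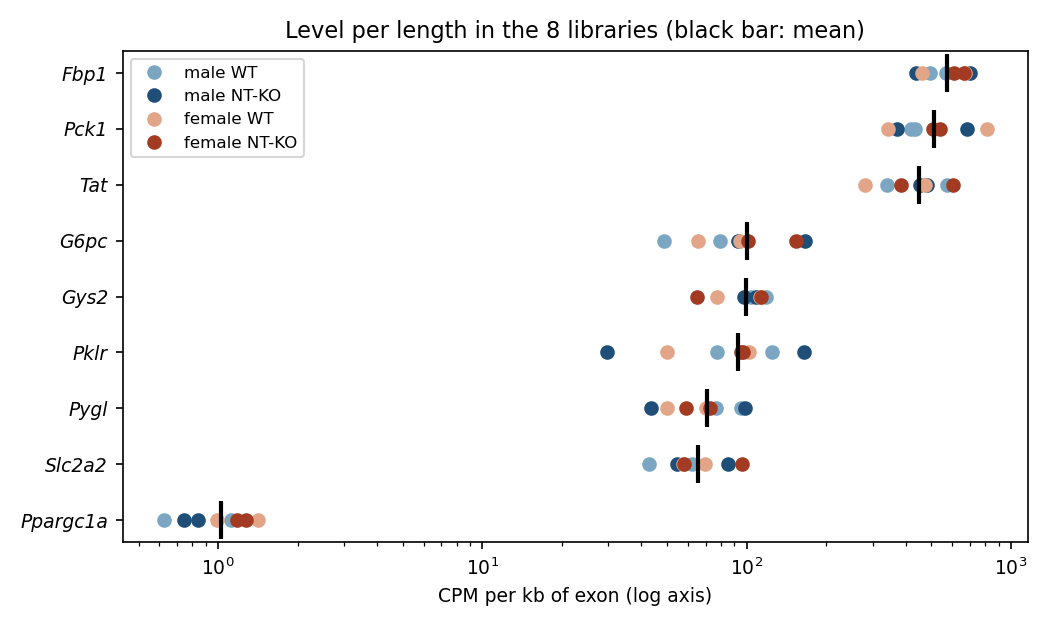
Each point is 1 of the 8 liver libraries, coloured by group, on a log axis of CPM per kb of exon, and the black bar is the mean over libraries. Fbp1, Pck1 and Tat sit above all points of the other genes, and Ppargc1a sits near 1 CPM per kb.

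The question of the main comparison is whether NT-KO livers differ from WT livers in these genes. None of the 9 genes passed an FDR of 0.05 in males, in females or over both sexes. G6pc, which encodes the catalytic subunit of glucose-6-phosphatase and so the last step of glucose release, was the only gene of the 9 whose NT-KO libraries lay wholly on 1 side of the WT libraries, and it did so in each sex (38.9% of all tested genes did not overlap in males and 26.4% in females). The other 8 genes overlapped between genotypes in both sexes. Between the libraries of 1 group, Pklr differed up to 5.54-fold, Pck1 up to 2.36-fold and Pygl up to 2.26-fold.

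In edgeR's quasi-likelihood test, 0 of 9 genes were called in males, where 0.0152% of all tested genes were called. At an unadjusted p under 0.05 there was 1, G6pc, against 11.5% of all tested genes. In females 0 of 9 were called, where 0.00762% of all tested genes were called, and 0 reached an unadjusted p under 0.05, against 1.55%. Over both sexes 0 of 9 were called (0.0152% of all tested genes), and 1 reached an unadjusted p under 0.05, against 5.42%. The likelihood ratio test and DESeq2 also called 0 of 9 in each of these comparisons, where the likelihood ratio test called 1.94%, 0.0839% and 0.389% of all tested genes and DESeq2 called 2.35%, 0.0381% and 0.473%. The median log2 fold change of the 9 genes was 0.03 in males and 0.17 in females, and over all tested genes it was 0.01 and 0.00.

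**Figure D2:**
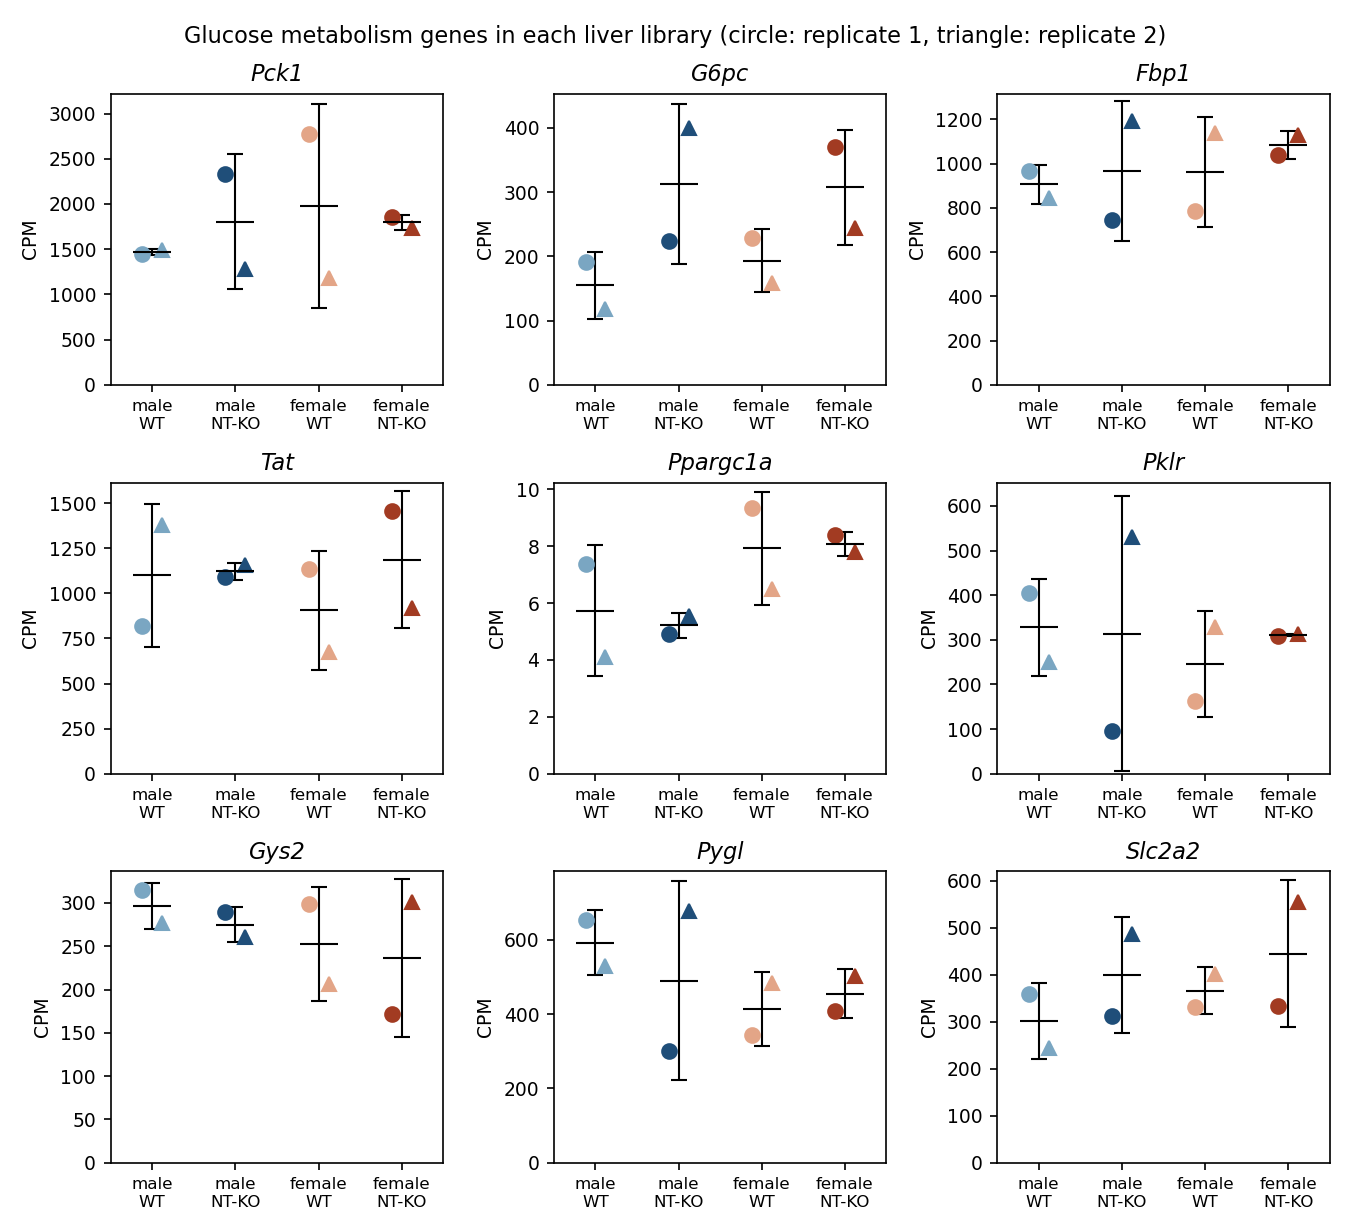
CPM of each gene in the 8 libraries by group, with replicate 1 as a circle and replicate 2 as a triangle, the mean as a bar and the SD as an error bar (n = 2). For G6pc both NT-KO points lie above both WT points in each sex, and for Pklr the male NT-KO libraries lie at 95.9 and 531 CPM.

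G6pc (chr11:101367561-101377903, plus strand, 5 exon blocks) read 192 and 117 CPM in the male WT libraries and 224 and 400.3 CPM in the male NT-KO libraries. In females the WT libraries read 228 and 159 CPM and the NT-KO libraries 371 and 244 CPM. Thus both NT-KO libraries exceeded both WT libraries within each sex, although in females the nearest libraries of the 2 genotypes lay at 244 and 228 CPM. The groups were this far apart, with NT-KO higher, in 19.6% of all tested genes in males and in 12.2% in females. The fold change was 2.02 in males (95% interval 1.12 to 3.65), a log2 fold change of 1.01 ± 0.37 (SE), with an FDR of 0.364 in edgeR's quasi-likelihood test. In females it was 1.59 (0.884 to 2.86), a log2 fold change of 0.67 ± 0.37, with an FDR of 1. Over both sexes it was 1.79 (1.18 to 2.72), a log2 fold change of 0.84 ± 0.26, with an FDR of 0.811. With each of the 8 libraries left out in turn, the log2 fold change ran from 0.53 (without male NT-KO replicate 2) to 1.41 (without male WT replicate 1) in males and from 0.34 (without female NT-KO replicate 1) to 0.95 (without female WT replicate 1) in females. Without a filter on low counts, the FDR in edgeR's quasi-likelihood test was 0.00175 in males and 1.33e-04 over both sexes. That setting called 3.09% and 1.5% of all tested genes in these comparisons. Over all other alternatives G6pc did not pass. In a bulk sample, fewer cells of a type and less RNA per cell cannot be told apart.

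Values of other genes are set beside those of G6pc, and some of them did not overlap between the genotypes. None of the genes named here passed an FDR of 0.05 in edgeR's quasi-likelihood test in either sex. In males that FDR was 0.423 for Srebf1 and 0.243 for Ighm. Srebf1, a regulator of fat synthesis that insulin raises, read 228 and 198 CPM in the male WT libraries against 261 and 469 CPM in the NT-KO ones, and 217 and 308 CPM against 502 and 339 CPM in females, so that it too did not overlap in either sex. In males the clock gene Arntl read 4.16 and 4.11 CPM in WT against 1.91 and 1.33 CPM in NT-KO livers, and the clock output gene Dbp read 28.4 and 30.8 CPM against 64.8 and 50.3 CPM. In females Arntl read 0.62 and 0.54 CPM in WT against 1.53 and 0.67 CPM in NT-KO livers. Dbp read 64.5 and 69.8 CPM in female WT against 43.6 and 69.6 CPM in female NT-KO livers. The summed level of the erythroid markers was 948 and 445 CPM in WT against 373 and 371 CPM in NT-KO males, and 185 and 180 CPM against 321 and 171 CPM in females. Ighm, an immunoglobulin heavy chain gene of B lymphocytes, read 4.92 and 2.62 CPM in WT against 7.30 and 48.1 CPM in NT-KO males, and 13.6 and 14.7 CPM against 5.04 and 6.85 CPM in females. It was thus higher in NT-KO males and lower in NT-KO females, without overlap in either sex. As a background to Srebf1 and Ighm, 38.9% of all tested genes did not overlap in males and 26.4% in females. In males edgeR's quasi-likelihood test called 0 of 14 clock genes and 0 of 5 tested erythroid markers, with 7 and 2 at an unadjusted p under 0.05 (11.5% of all tested genes), and the likelihood ratio test called 1 and 0 (1.94% of all tested genes). The part of these genes in the G6pc result was not tested.

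Pck1 (chr2:173153048-173159273, plus strand), the enzyme that commits oxaloacetate to gluconeogenesis, did not follow G6pc. In males the WT libraries read 1441 and 1493 CPM and the NT-KO libraries 2334 and 1276 CPM. In females the WT libraries read 2777 and 1176 CPM and the NT-KO libraries 1856 and 1737 CPM. The highest and the lowest of the 8 libraries were thus both female WT, 2.36-fold apart, a gap that 1.78% of all tested genes reached between these libraries. The log2 fold change was 0.30 ± 0.41 in males (95% interval -0.64 to 1.24) and -0.14 ± 0.41 in females (-1.08 to 0.80). Its sign turned in males without NT-KO replicate 1, to -0.20, and in females without WT replicate 1, to 0.61.

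Fbp1 (chr13:62864753-62888282, minus strand), fructose-1,6-bisphosphatase, had the smallest range of the 9 genes, 1.60-fold from the lowest to the highest library. It ranged from 744 to 1192 CPM over all libraries, and both ends were male NT-KO libraries. For Fbp1 the log2 fold change was 0.10 ± 0.28 in males (95% interval -0.54 to 0.73) and 0.17 ± 0.28 in females (-0.46 to 0.81).

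Tat (chr8:109990437-109999803, plus strand) encodes tyrosine aminotransferase, an amino acid catabolic enzyme raised by glucocorticoids. The male WT libraries read 819 and 1381 CPM against 1089 and 1155 CPM in NT-KO males, and the female WT libraries read 1138 and 673 CPM against 1454 and 919 CPM in NT-KO females. The NT-KO libraries of males lay between the WT libraries, and those of females overlapped them. For Tat the log2 fold change was 0.03 ± 0.35 in males (95% interval -0.78 to 0.84) and 0.39 ± 0.35 in females (-0.42 to 1.20).

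Ppargc1a (chr5:51454250-51567726, minus strand), the coactivator PGC-1 alpha that takes part in the fasting response, was measured on 174 to 510 counts per library. It read 7.36 and 4.11 CPM in WT against 4.90 and 5.53 CPM in NT-KO males. Female WT livers read 9.33 and 6.51 CPM against 8.38 and 7.78 CPM in NT-KO females. The genotypes overlapped in both sexes, with log2 fold changes of -0.14 ± 0.30 in males (95% interval -0.82 to 0.54) and 0.03 ± 0.29 in females (-0.64 to 0.70).

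Pklr (chr3:89136142-89146784, plus strand), liver pyruvate kinase at the end of glycolysis, varied most within a group. It read 405 and 251 CPM in WT against 95.9 and 531 CPM in NT-KO males, so the male NT-KO pair held both the lowest and the highest of all 8 values. Female WT livers read 162 and 330 CPM against 309 and 313 CPM in NT-KO females. The male NT-KO replicates differed 5.54-fold, and 0.693% of all tested genes differed as much between these libraries. The log2 fold change in males was -0.06 ± 0.67 (95% interval -1.61 to 1.48). Leaving out NT-KO replicate 1 of the males gave 0.70, and leaving out NT-KO replicate 2 gave -1.78. In females it was 0.34 ± 0.67 (-1.21 to 1.88). A stretch of 711 bases of its exons overlaps Hcn3 on the other strand, and whether the counting used strand is not given in the sources used here.

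Gys2 (chr6:142422613-142473109, minus strand), liver glycogen synthase, ranged only from 172 to 315 CPM. Its log2 fold change was -0.11 ± 0.29 in males (95% interval -0.77 to 0.56) and -0.09 ± 0.29 in females (-0.76 to 0.57). Pygl (chr12:70190811-70231488, minus strand), liver glycogen phosphorylase, read 654 and 530 CPM in WT against 300 and 678 CPM in NT-KO males. It read 343 and 484 CPM in WT against 408 and 502 CPM in NT-KO females. As with Pklr, the male NT-KO pair held the lowest and the highest value. The log2 fold change of Pygl was -0.28 ± 0.37 in males (-1.12 to 0.57) and 0.14 ± 0.37 in females (-0.71 to 0.98). A share of 0.526% of its 50-base stretches occurs in another gene, Gm47451.

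Slc2a2 (chr3:28697903-28731359, plus strand) encodes GLUT2, the glucose transporter of the hepatocyte membrane. It read 358 and 245 CPM in WT against 313 and 488 CPM in NT-KO males, and 331 and 402 CPM against 335 and 555 CPM in females. The means were higher in NT-KO in both sexes, but the libraries overlapped. The log2 fold change was 0.41 ± 0.33 in males (95% interval -0.34 to 1.16) and 0.28 ± 0.33 in females (-0.47 to 1.03).

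**Figure D3:**
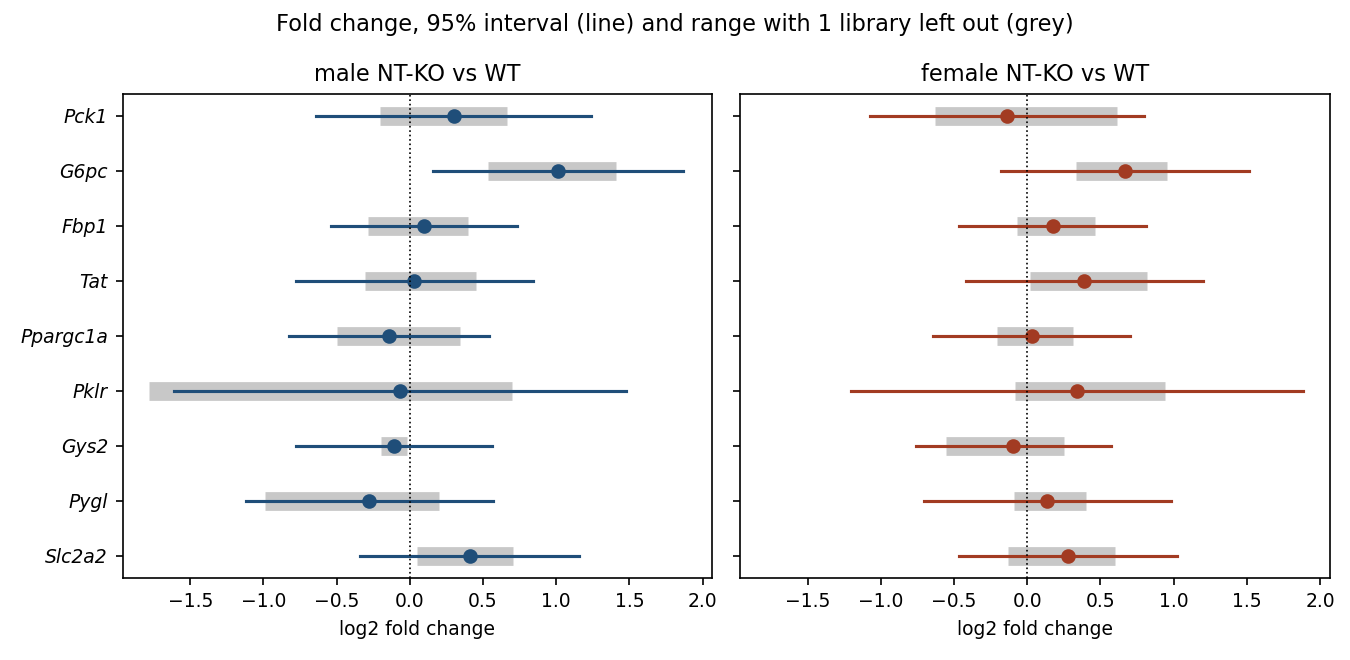
Log2 fold change of NT-KO over WT in males (left) and females (right), as a point with its 95% interval (line) and the range with each of the 8 libraries left out in turn (grey bar). The male interval of G6pc lies above 0, all other intervals cross it, and the grey bar of Pklr in males runs from -1.78 to 0.70.

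The next comparison asks whether the effect of the genotype differed between the sexes. In the test of that difference, 0 of 9 genes were called by edgeR's quasi-likelihood test, where 0.0152% of all tested genes were called, and 0 reached an unadjusted p under 0.05, against 7.2%. The likelihood ratio test (0.351% of all tested genes) and DESeq2 (0.473%) also called 0. For G6pc the female log2 fold change minus the male one was -0.34 ± 0.52 (95% interval -1.54 to 0.85). The intervals were wider still for Pklr, at 0.40 ± 0.95 (-1.78 to 2.59), and Pck1, at -0.44 ± 0.58 (-1.76 to 0.89). Differences of several-fold between the sexes lie within these intervals, and the power of this test was not computed.

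WT females and WT males were compared to show the range of these genes without the mutation. Again 0 of 9 genes were called by edgeR's quasi-likelihood test, the likelihood ratio test or DESeq2, although these tests called 6.44%, 13% and 13.7% of all tested genes. At an unadjusted p under 0.05 there were 0, against 27% of all tested genes. Pygl was the only gene of the 9 whose libraries did not overlap, with both female WT libraries below both male WT libraries, where 62% of all tested genes did not overlap and 30.6% were lower in this way. Its log2 fold change was -0.52 ± 0.37 (95% interval -1.36 to 0.33), with an FDR of 0.397 in edgeR's quasi-likelihood test. The highest mean difference upward was that of Ppargc1a, at 0.46 ± 0.29 (-0.22 to 1.14), with overlapping libraries.

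Within single libraries, Pck1 and Pklr lay at opposite ends in some mice. The ratio of Pck1 to Pklr, a measure chosen after the values were seen, was 24.3 in male NT-KO replicate 1 and 17.2 in female WT replicate 1, and 2.40 to 6.00 in the other 6 libraries. The libraries with a high ratio came from different genotypes. Of 9 genes known to rise with feeding (Srebf1, Fasn, Acaca, Acly, Elovl6, Pnpla3, Thrsp, Me1 and Scd1), the summed level was 3031 CPM in male NT-KO replicate 1 and 5684 CPM in female WT replicate 1, the lowest values of the 8 libraries, and 21485 CPM in male NT-KO replicate 2, the highest. It lay at 6813 to 12263 CPM in the other 5 libraries. The place of female WT replicate 1 depended on the measure, since by the mean of centred log2 CPM over the same 9 genes it lay at -0.46, above male WT replicate 2 at -0.50, while male NT-KO replicate 1 remained lowest at -1.53. Fasn, fatty acid synthase, alone had 223 CPM in male NT-KO replicate 1 and 1489 CPM in male NT-KO replicate 2. Igfbp1, a gene that insulin represses, had 10.6 CPM in male NT-KO replicate 1, 24.7 CPM in female WT replicate 1, and 2.22 to 9.66 CPM in the others. The fasting list of 8 genes, of which Igfbp1 is one, did not group these libraries by its summed level. That level was 1975 CPM in male NT-KO replicate 1, the lowest of the 8 libraries, and 3766 CPM in female WT replicate 1, the highest. By the mean of centred log2 CPM, male NT-KO replicate 1 lay at -0.18, above the other male libraries (-1.22 to -0.80). Female WT replicate 1 lay at 1.36, above the other female libraries (0.34 to 0.74). In edgeR's quasi-likelihood test 0 of 9 feeding genes passed in males, females or over both sexes, with 1, 0 and 1 (Srebf1 in both cases) at an unadjusted p under 0.05, against 11.5%, 1.55% and 5.42% of all tested genes. Of 8 fasting genes 0 passed in these comparisons, with 2, 0 and 0 at an unadjusted p under 0.05. The likelihood ratio test called 1 fasting gene in males and 0 in females or over both sexes. In these comparisons it called 1.94%, 0.0839% and 0.389% of all tested genes. The part of the feeding genes in the values of Pck1, Pklr and Pygl was not tested.

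**Figure D4:**
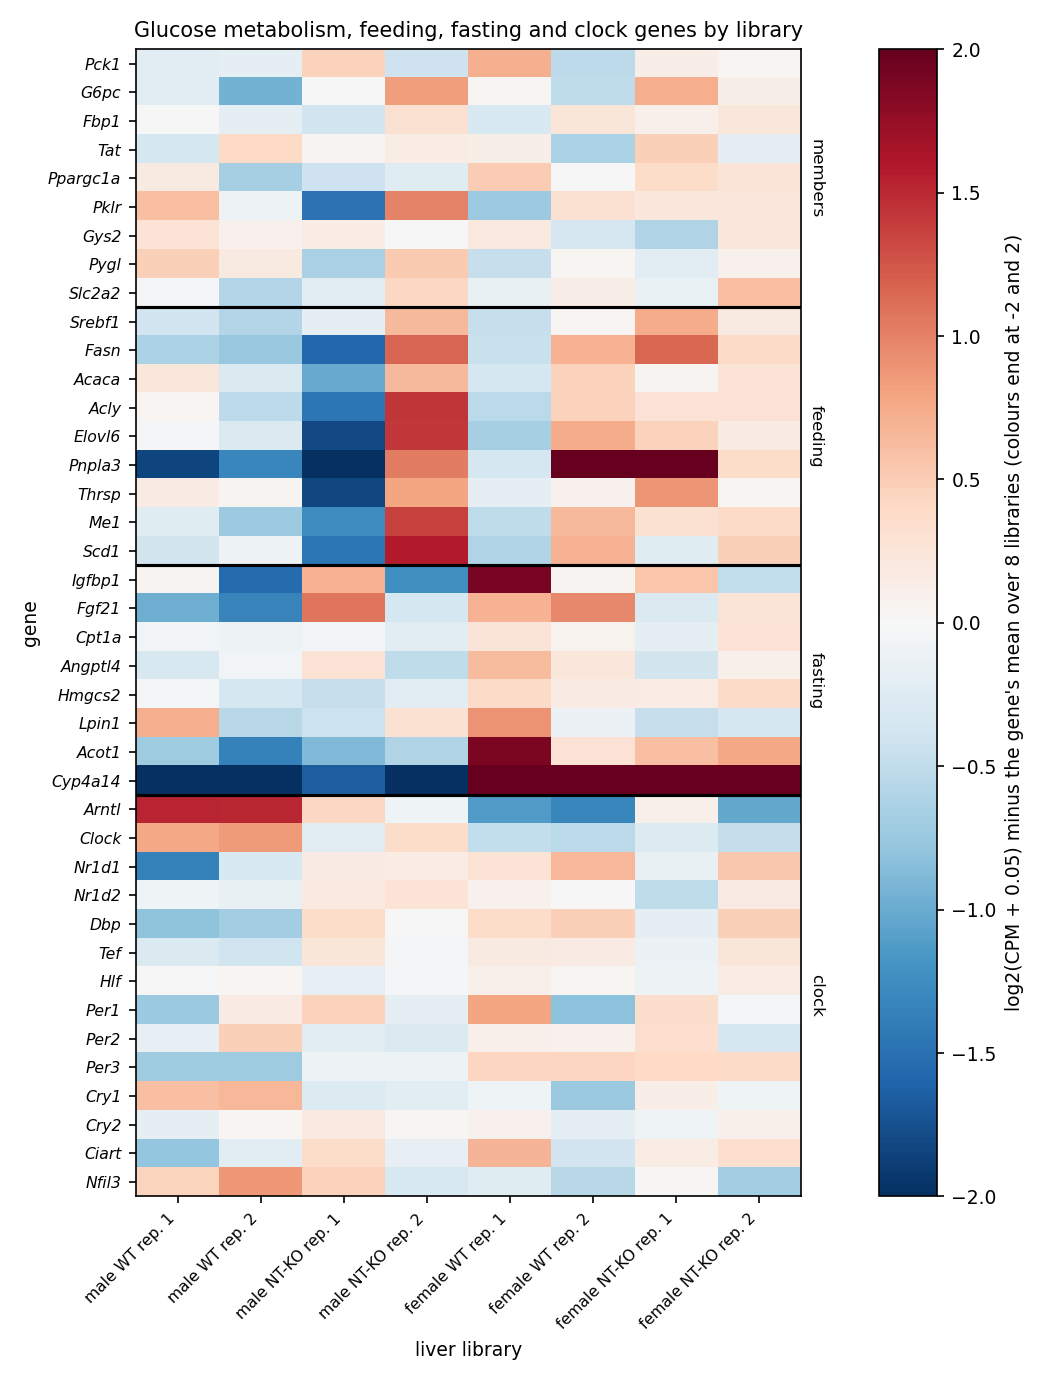
Log2(CPM + 0.05) of the 9 glucose metabolism genes and of feeding, fasting and clock genes (rows) in the 8 libraries (columns), each gene minus its own mean, in colours that end at -2 and 2. The feeding genes are low and Pklr and Pygl are at their lowest in male NT-KO replicate 1, and both are at their highest in male NT-KO replicate 2.

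By the distance between profiles over the 8 libraries (root mean square of log2 CPM, centred and scaled to SD 1, among 7410 genes with at least 10 CPM on average), the gene nearest to Pklr was Dhrs7b at 0.134, before Rpa1 at 0.282 and Acaca, acetyl-CoA carboxylase, at 0.293. Pygl was nearest to Appbp2 at 0.105, Ptcd3 and Mttp. Pck1 was nearest to Ndufb9 at 0.194, Chchd2 and Rapgef4, and G6pc to Zfhx4 at 0.277, with Esd also among its nearest. Slc2a2 was nearest to Abcd3 at 0.149, Cd99l2 and Copg2, Tat to Rgs5, Ndufaf2 and Nkiras1, and Ppargc1a to Spred1, Prkag2 and Mfsd2a. Fbp1 and Gys2 varied by less than 1 in log2 CPM, and no neighbours were sought. Since every profile was scaled to SD 1, a near profile can belong to a gene that hardly varies: Ndufb9 spanned 0.19 and Esd 0.23 in log2 CPM, against 1.24 for Pck1 and 1.77 for G6pc. These are descriptions over 8 libraries that share their depth and group structure.

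The wider pathway was read from 104 further genes in 5 lists (gluconeogenesis and its substrates, glycolysis and fructose use, glycogen, glucose transporters, and hormone signalling with transcription factors), of which 98 were tested. In edgeR's quasi-likelihood test 0 of 98 passed in males, with 10 (10.2%) at an unadjusted p under 0.05, against 11.5% of all tested genes. In females 0 passed, with 1 (1.02%) at an unadjusted p under 0.05, against 1.55%. Over both sexes 0 passed, with 9 (9.18%) against 5.42%, and for the difference between the sexes 0 passed, with 3 (3.06%) against 7.2%. The likelihood ratio test called 1 of 98 in males and DESeq2 called 2, where they called 1.94% and 2.35% of all tested genes. Both called 0 in the other 3 comparisons. There the likelihood ratio test called 0.0839%, 0.389% and 0.351% of all tested genes, and DESeq2 0.0381%, 0.473% and 0.473%.

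Among the glucose-making and substrate genes in males, Slc16a1, which encodes the lactate transporter MCT1, read 63.6 and 48.3 CPM in WT against 28.2 and 35.7 CPM in NT-KO livers. Its log2 fold change of -0.81 ± 0.21 had an FDR of 0.240 in edgeR's quasi-likelihood test, and the female value exceeded the male one by 1.06 ± 0.29 on the log2 scale (FDR 0.573). Ldhb, a lactate dehydrogenase subunit, stood at 0.72 ± 0.27 on the log2 scale. In females the smallest unadjusted p of this list was that of G6pc3, a glucose-6-phosphatase subunit made in most tissues, at -0.46 ± 0.19. Among glycolytic genes in males, Pdk4, which shuts pyruvate out of the mitochondrial oxidation path in fasting, read 1.38 and 1.60 CPM in WT against 2.32 and 4.33 CPM in NT-KO livers. Its log2 fold change was 1.16 ± 0.34, with an FDR of 0.285 in the same test.

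Among glycogen genes, Phka2, a subunit of liver phosphorylase kinase, had a log2 fold change of 0.73 ± 0.23 in males, and Ppp1r3c, a glycogen-targeting subunit of protein phosphatase 1, of 0.77 ± 0.38 in females. Among transporters, Slc2a5, the fructose transporter GLUT5, stood at 1.09 ± 0.40 in males and 0.76 ± 0.40 in females on the log2 scale. Among regulators, Nr0b2, the corepressor SHP, read 15.4 and 27.3 CPM in WT against 92.4 and 39.5 CPM in NT-KO males. Its log2 fold change of 1.63 ± 0.42 had an FDR of 0.242 in edgeR's quasi-likelihood test and was the single call of the likelihood ratio test in males, and DESeq2 called it together with Slc16a1.

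Between female and male WT, edgeR's quasi-likelihood test called 4 of the 98 pathway genes, 2 higher and 2 lower in females, where it called 6.44% of all tested genes. At an unadjusted p under 0.05 there were 18 (18.4%), against 27% of all tested genes. Mpc1, a subunit of the mitochondrial pyruvate carrier, rose from 110 and 112 CPM in male WT to 242 and 208 CPM in female WT, a log2 fold change of 1.02 ± 0.17 with an FDR of 0.0150 in edgeR's quasi-likelihood test. Pdk4 was also higher, at 1.70 ± 0.34 (FDR 0.0314). Slc16a1 was lower, at -0.91 ± 0.21 (FDR 0.0422), and so was Pfkfb3, which makes the activator of phosphofructokinase, at -1.71 ± 0.41 (FDR 0.0475). The count fell to 0 when male WT replicate 1 or either female WT library was left out, and to 1 when male WT replicate 2 or either female NT-KO library was left out. It was 6 when either NT-KO library of the males was left out. The likelihood ratio test called 9 and DESeq2 11, where they called 13% and 13.7% of all tested genes.

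The WT groups of the sexes also differed in genes that follow the time of day. Of 14 clock genes, 5 passed the FDR in edgeR's quasi-likelihood test, against 6.44% of all tested genes. Per3 (log2 fold change 1.15 ± 0.14) and Dbp (1.18 ± 0.24) were higher in female WT, and Arntl (-2.83 ± 0.42), Clock (-1.33 ± 0.21) and Cry1 (-1.01 ± 0.22) were lower. Of 8 fasting genes, 2 passed against the same share of all tested genes, Cyp4a14 and Acot1, both higher in females, and 0 of 9 feeding genes passed, with 0 at an unadjusted p under 0.05 and 0 by the likelihood ratio test. Among 62 tested markers in 10 cell type lists, 4 of erythroid cells (Alas2, Hbb-bt, Hbb-bs and Hba-a1) and the periportal marker Cdh1 were lower. Between NT-KO and WT, 0 of these 62 markers passed in males, in females or over both sexes. At an unadjusted p under 0.05 in edgeR's quasi-likelihood test there were 8, 3 and 2, against 11.5%, 1.55% and 5.42% of all tested genes. The likelihood ratio test called 1, 0 and 0, where it called 1.94%, 0.0839% and 0.389% of all tested genes. The part of these genes in the values of Pygl, Mpc1, Pdk4, Slc16a1 and Pfkfb3 was not tested, and sex and the hour of collection cannot be told apart here.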

How the data were processed

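RNA-seq was performed by the authors on post-weaning liver, with 2 libraries per sex and genotype. Per the submitters' processing notes and the study's methods, reads were checked with FastQC, trimmed with cutadapt, aligned to GRCm38 with STAR 2.6.1a and counted per Ensembl gene with featureCounts. The settings for strand and multiply mapped reads are not given in the sources used here. The deposited values are raw counts with no normalization, and 0 columns were left unused.

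From these counts, CPM (per total count, scaled by TMM) and tests were computed with R 4.3.3 and edgeR 4.0.16. The filter asked for 1 CPM or more in 2 or more libraries and removed genes of mitochondria, rRNA and miRNA, so that 13117 of 49671 were tested. A quasi-likelihood model (glmQLFit, glmQLFTest) with 1 mean per group was fitted to all 8 libraries, p-values were adjusted by Benjamini-Hochberg over all tested genes, and an FDR of at most 0.05 was a call. The SE is the size of the log2 fold change divided by the square root of F, and intervals are 95% intervals from the same fit. The alternatives were the likelihood ratio test, DESeq2 1.42.0, other size factors and filters, a replicate block, a log2 fold change over 1, the 4 libraries compared alone, and each library left out. The tests were tried on simulated data with changes in male NT-KO. Of 100 genes given a log2 fold change of size 1, the quasi-likelihood test recovered 21, the likelihood ratio test 44 and DESeq2 51. Of 100 genes given a size of 2 in the same run, these tests recovered 87, 97 and 95. Over the whole run of 200 changed genes, false calls among the unchanged genes were 7, 36 and 28. An exact permutation test of 2 against 2 cannot go below p = 0.333 (two-sided) and was not used.

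Names, lengths and positions came from GENCODE on GRCm38, in which 49412 gene IDs matched and 259 did not. The depth, 45020377 to 64396291 counts per library, makes counting error small for these genes, so that the spread between replicates limits the precision.

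The 9 genes are described in every comparison. From each other list, the text draws on genes that passed (at most 5) or, where none passed, on the 2 with the smallest unadjusted p, and per gene that varied by more than 1 in log2 CPM, the 3 nearest profiles. Other genes and lists' single values (Fasn, Igfbp1, and the library values of Arntl, Dbp and Ighm) were named after their values were seen. Some genes that this rule would name, and the results that need them, are not reported here. The genes and lists were chosen with earlier results of these data known.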

Additional observations from a re-analysis of the deposited data

How the results depend on the processing

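Of 702 log2 fold changes of the 9 genes under the alternatives, 636 kept their direction and their side of the FDR, 64 turned in sign and 2 (G6pc in males and over both sexes, without a filter on low counts) passed. In 12 of 45 pairs of a gene and a comparison no alternative turned the sign, among them G6pc in each sex and over both. Outside the libraries left out, the sign turned only with library size alone in place of TMM, for Pklr in males (0.015), and for Fbp1 (-0.020) and Gys2 (-0.083) in the difference between the sexes.

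With 1 library left out, the log2 fold change ranged as follows where its sign turned. In males it was -1.78 to 0.70 for Pklr, -0.30 to 0.45 for Tat, -0.50 to 0.34 for Ppargc1a, -0.29 to 0.40 for Fbp1, -0.20 to 0.66 for Pck1 and -0.99 to 0.20 for Pygl. In females it was -0.63 to 0.61 for Pck1, -0.070 to 0.46 for Fbp1, -0.085 to 0.94 for Pklr, -0.55 to 0.25 for Gys2, -0.089 to 0.40 for Pygl, -0.21 to 0.31 for Ppargc1a and -0.13 to 0.60 for Slc2a2. Over both sexes it was -0.23 to 0.19 for Ppargc1a, -0.42 to 0.17 for Pygl, -0.72 to 0.52 for Pklr, -0.17 to 0.45 for Pck1, -0.054 to 0.28 for Fbp1 and -0.33 to 0.072 for Gys2. For the difference between the sexes it was -0.22 to 0.47 for Fbp1, -0.45 to 0.36 for Gys2, -0.30 to 0.53 for Ppargc1a, -0.064 to 0.79 for Tat, -0.54 to 0.24 for Slc2a2, -0.93 to 0.31 for Pck1, -0.36 to 2.13 for Pklr, -0.059 to 1.13 for Pygl and -0.73 to 0.15 for G6pc. In female against male WT it was -0.20 to 0.33 for Fbp1, -0.71 to 0.14 for Tat, -0.32 to 0.92 for Pck1, -1.02 to 0.0093 for Pklr and -0.52 to 0.018 for Gys2.

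Without a filter on low counts, 29724 genes were tested, and 1 of the 9 genes was called in males and 1 over both sexes (G6pc in each). The pathway genes called were 9 in males, 1 in females, 5 over both sexes, 7 for the difference between the sexes and 14 in female against male WT. In the same order, this setting called 3.09%, 0.653%, 1.5%, 1.86% and 8.96% of all tested genes. The likelihood ratio test called 1 pathway gene in males and 9 in female against male WT, and DESeq2 called 2 and 11. Of all tested genes, the likelihood ratio test called 1.94% and 13% in these comparisons, and DESeq2 2.35% and 13.7%. In female against male WT, 0 to 6 pathway genes were called with 1 library left out, against 4 with all. The cause of these shifts was not tested. The count over all genes in males was 2 by the quasi-likelihood test, 254 by the likelihood ratio test, 308 by DESeq2 and 917 without a filter.

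The labels do not say what the replicate numbers share, and deviations of same-numbered libraries correlated at -0.18 to 0.21 over 13117 genes. With a replicate block, edgeR's quasi-likelihood test called 0 of the 9 genes in every comparison and 3 pathway genes in female against male WT. In the latter it called 5.18% of all tested genes. With the 2 male WT numbers crossed, an alternative added after seeing the data, it called 5 pathway genes and 8.45% of all tested genes.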
